A study of Danio rerio with 8 samples.

Results

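The genes described here encode splicing regulators and related RNA-binding proteins of the zebrafish. They were chosen by name, as every row of the count table whose gene name began with srsf, hnrnp, rbfox, celf, elavl, rbpms, nova, ptbp, khdrbs, mbnl, qki or tra2 with its member number or letter, whatever the case. The rule found 82 of the 31953 gene rows in the table. Of these 82 genes, 72 had enough reads to be tested and 10 did not. Of the untested genes elavl2, khdrbs3, celf5b and 1 of the 3 rows named srsf3a had 0 counts everywhere, and the other 6 had 1 to 17 counts over all 8 libraries. The rule used names and no expression value, though the genes were chosen with earlier results of these data known.

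Splicing regulators bind short motifs in a pre-mRNA and help or hinder the spliceosome at nearby exons. SR proteins mostly promote the inclusion of exons that they bind, and hnRNP proteins often repress it. Rbfox, Celf, Nova, Elavl, Mbnl, Ptbp and Qki proteins add patterns that differ between tissues, and much of what is known of them comes from mammalian neurons and muscle. Endocrine cells of the pancreas share part of this set with neurons.

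The measurements are read counts from Smart-Seq2 libraries, a full-length cDNA method without molecular identifiers, made from dissociated and sorted cells of the pancreas of zebrafish 30 days post fertilization. The libraries fell into groups named by which reporter their cells carried: 3 libraries of sst1.1+ins+ cells, 2 of ins+ cells and 3 of sst1.1+ cells. All 8 libraries have the same label of genotype, Tg(ins:BB1.0L) together with TgBAC(sst1.1:memEGFP), and growth labelled as normal. The first transgene is named for the insulin gene ins, the hormone of beta cells, and the second places a membrane EGFP under a large genomic fragment of sst1.1, a somatostatin gene of delta cells. A group is thus defined by the activity of 1 or both reporters and not by a surface marker. The labels do not say whether the replicates came from separate fish, pools or sorts, and the p-values therefore cover no more than library-to-library spread, part or all of which may be technical. Since these are bulk samples, fewer cells of a type and less RNA per cell cannot be told apart.

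Libraries held 24234927 to 24504469 gene counts in sst1.1+ins+, 16948429 to 19861081 in ins+ and 23425079 to 30374029 in sst1.1+. Levels are given as CPM (counts scaled to the total of a library), with totals scaled by the TMM method. Gene lengths were not used, so levels are compared between groups for the same gene and not between genes. A floor of 3 counts corresponds to 0.101 to 0.176 CPM and covers counting error only. The transcripts of the reporter genes themselves were lowest in the group without that reporter. The gene ins averaged 121400 CPM in sst1.1+ins+, 246200 CPM in ins+ and 997 CPM in sst1.1+. For sst1.1 the means were 182700, 49120 and 280800 CPM in the same order, so its transcript was lower but not absent in ins+. Reads of EGFP made up 0.319 to 0.358% of each sst1.1+ins+ library, 0.0200 and 0.0281% of the ins+ libraries and 0.618 to 0.81% of each sst1.1+ library. Other somatostatin genes did not follow the sort: sst1.2 averaged 28000, 23650 and 27580 CPM, and sst2 averaged 17440, 20760 and 13680 CPM. Their edgeR adjusted p in ins+ against sst1.1+ was 0.788 and 0.559. Immediate early and heat shock genes, which mark the response of cells to handling and stress, differed strongly between groups. The sum of 27 such genes lay between 22310 and 26700 CPM in sst1.1+ins+, between 9305 and 9543 CPM in ins+ and between 35330 and 38580 CPM in sst1.1+. Of the 26 genes of that list that were tested, 19 fell and 1 rose in ins+ against sst1.1+, 2 fell in sst1.1+ins+ against sst1.1+, and 13 rose in sst1.1+ins+ against ins+ (edgeR adjusted p under 0.05). Of all genes tested, 2.42% fell and 1.61% rose in the first comparison, 0.0305% fell in the second and 0.755% rose in the third. The sum of these 27 genes was lowest in ins+ and highest in sst1.1+, so it changes together with many of the differences described below. Its part in them was not tested.

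The clearest difference lay in rbfox3, an Rbfox family gene whose mammalian product is the neuronal nuclear antigen NeuN. It was higher in ins+ cells and in sst1.1+ins+ cells than in sst1.1+ cells. The gene rbpms2b, which encodes an RNA-binding protein studied mostly in heart, smooth muscle and germ cells, was nearly missing from ins+ cells and present in both groups that carry the sst1.1 reporter. The polypyrimidine tract binding gene ptbp1b was lower in ins+ cells than in sst1.1+ cells. The SR genes srsf5a and srsf5b, the hnRNP gene hnrnpa0a and the Celf gene celf3a were higher in ins+ cells than in sst1.1+ cells, and the SR gene srsf6a was lower in sst1.1+ins+ cells than in ins+ cells. The calls of srsf5a, celf3a and srsf6a lay close to the threshold. They were lost under 9, 7 and 7 of the 17 alternative fits described below.

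In ins+ against sst1.1+, edgeR's quasi-likelihood test with Benjamini-Hochberg adjustment over the 16418 genes tested called 7 of the 72 tested genes at an adjusted p under 0.05, which is 9.72%, beside 4.03% of all genes tested. Of the 7, 5 rose in ins+, or 6.94% beside 1.61% of all genes, and 2 fell, or 2.78% beside 2.42% of all genes. The count was 4 without sst1.1+ replicate 2 and 11 without sst1.1+ replicate 3. The share of all genes called in those fits is not given here, so these counts have no background beside them. Against sst1.1+, 1 of the 72 genes rose in sst1.1+ins+, or 1.39%, and 0 fell, beside 0.207% of all genes called, 0.177% higher and 0.0305% lower. At an unadjusted p under 0.05 there were 6 higher and 4 lower in that comparison, or 13.9% beside 7.89% of all genes. Among the 6 was khdrbs2, with 0, 85 and 42 counts in sst1.1+ins+ and 0 in every other library. That gene was tested through its sst1.1+ins+ reads alone. DESeq2 and limma-voom each also called 1 higher and 0 lower. For all genes the closing section gives only the range of shares over all alternatives, not the share of either tool. Against ins+, 1 gene rose and 1 fell in sst1.1+ins+, together 2.78%, beside 0.920% of all genes called, 0.755% higher and 0.164% lower. That count of 2 became 1 when any sst1.1+ins+ library or sst1.1+ replicate 2 was left out, and 4 without sst1.1+ replicate 3. Here too the share of all genes in those fits is not given. The srsf6a call, 1 of the 2, was also lost without either ins+ library, as given below. The 3 comparisons share libraries and are not independent of each other.

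**Figure D1:**
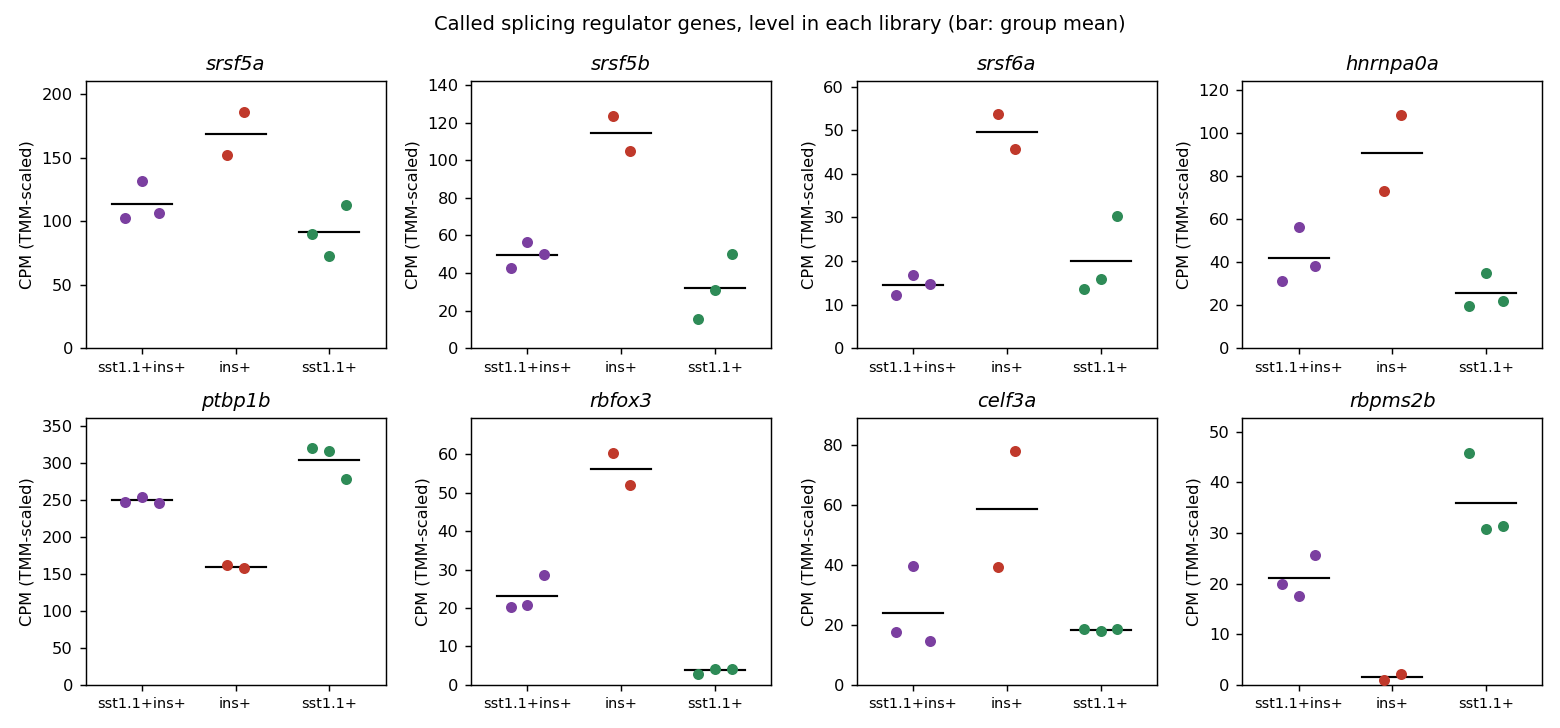
Level of each of the 8 genes called in any comparison, in CPM on TMM-scaled totals (vertical axes start at 0), in the 3 sst1.1+ins+, 2 ins+ and 3 sst1.1+ libraries. Each point is 1 library and each bar is the mean of its group. The sst1.1+ins+ mean lies between the other 2 means for every gene except srsf6a, whose mean is 14.5 CPM in sst1.1+ins+, 49.7 CPM in ins+ and 19.97 CPM in sst1.1+.

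For rbfox3 (ENSDARG00000010083) the libraries read 20.2, 20.8 and 28.5 CPM in sst1.1+ins+, 60.3 and 52.0 CPM in ins+, and 2.85, 4.22 and 4.11 CPM in sst1.1+. The 3 groups did not overlap: every ins+ library was above every sst1.1+ins+ library, and those were above every sst1.1+ library. Means were 23.2 ± 4.62 CPM in sst1.1+ins+ (SD, n = 3), 56.2 ± 5.87 CPM in ins+ (SD, n = 2) and 3.73 ± 0.759 CPM in sst1.1+ (SD, n = 3), with the same n for the means of other genes. The log2 fold change in ins+ against sst1.1+ was 3.91 ± 0.33 (SE), or 15.1-fold, with an edgeR adjusted p of 4.73e-05. The value for sst1.1+ins+ against sst1.1+ was 2.64 ± 0.30 (SE), or 6.21-fold, with an edgeR adjusted p of 0.00271. Both calls held under all 17 alternatives, with adjusted p up to 0.00111 and 0.0350. Between sst1.1+ins+ and ins+ the log2 fold change of -1.28 ± 0.31 (SE) had an edgeR adjusted p of 0.0952 and was not called.

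The other Rbfox genes tested did not pass. The widely expressed rbfox2 averaged 32.5 ± 7.99 CPM in sst1.1+ins+, 26.6 ± 7.15 CPM in ins+ and 31.5 ± 3.43 CPM in sst1.1+, with overlapping groups and an edgeR adjusted p of 0.748 in ins+ against sst1.1+. The count of rbfox3 relative to rbfox2 within a library was 0.789, 0.505 and 0.934 in sst1.1+ins+, 2.79 and 1.64 in the ins+ pair, and 0.0915, 0.149 and 0.117 in sst1.1+. This ratio is free of library scaling, and its groups did not overlap. Since rbfox2 was not called, the ratio mostly restates the rbfox3 difference and is no separate result. The second rbfox3 gene, rbfox3l, read 3.25, 3.36 and 8.78 CPM in sst1.1+ins+, 3.14 and 0.704 CPM in ins+, and 0.974, 0.894 and 2.12 CPM in sst1.1+. Its edgeR adjusted p was 0.679 in sst1.1+ins+ against sst1.1+. The remaining genes of the family, rbfox1 and rbfox1l, had 16 and 1 counts over all 8 libraries and were not tested.

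Because rbfox3 marks neurons in mammals, the neuronal markers were read beside it. The sum of 14 neuronal markers other than the Elavl genes was 324 to 398 CPM in sst1.1+ins+, 219 to 333 CPM in ins+ and 278 to 389 CPM in sst1.1+. Of these markers gap43, stmn2b, nefmb and th were at 0 in all 3 groups. Most of the sum came from isl1, which islet cells also express, at means of 333, 252 and 263 CPM in the same order of groups. The sum therefore says little of the other markers. With the Elavl genes included, 8 neuronal markers were tested in ins+ against sst1.1+. Of these 5 had negative and 3 positive estimates, and edgeR called 1 lower and 0 higher, where 2.42% of all genes were called lower. The part of neurons in the rbfox3 difference was not tested.

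The gene rbpms2b (ENSDARG00000079578) read 19.96, 17.5 and 25.7 CPM in sst1.1+ins+, 1.047 and 2.11 CPM in ins+, and 45.7, 30.7 and 31.4 CPM in sst1.1+. The ins+ values rest on 21 and 36 counts, above the floor of 3, and none of the 3 groups overlapped. Set against sst1.1+, ins+ had a log2 fold change of -4.51 ± 0.47 (SE), 22.8-fold lower, with an edgeR adjusted p of 0.000218. Set against ins+, sst1.1+ins+ had one of 3.74 ± 0.45 (SE), 13.4-fold higher, with an edgeR adjusted p of 0.00201. The first call held under all 17 alternatives and the second under 16, being lost with limma-voom at an adjusted p of 0.131. Without ins+ replicate 2 these log2 fold changes were -5.10 and 4.33, with the lower ins+ library alone in its group. The log2 fold change in sst1.1+ins+ against sst1.1+ of -0.77 ± 0.33 (SE) had an edgeR adjusted p of 0.606.

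Since smooth muscle expresses Rbpms genes, markers of mesenchyme and muscle were summed too. The 7 markers summed to 1.39, 31.9 and 3.63 CPM in sst1.1+ins+, 1.89 and 2.99 CPM in ins+, and 3.96, 35.4 and 94.5 CPM in sst1.1+. Their mean was lowest in ins+, as was that of rbpms2b, and all 6 markers tested had negative estimates in ins+ against sst1.1+, whose median was -3.96 on the log2 scale. Single libraries were ordered otherwise: the sum was lowest in sst1.1+ins+ replicate 1 and rbpms2b in ins+ replicate 1. The sum was highest in sst1.1+ replicate 3 and rbpms2b in sst1.1+ replicate 1. The lowest edgeR adjusted p among the 6 markers was 0.165, for acta2, 2 of the 6 had an unadjusted p under 0.05 (beside 17.6% of all genes), and PDGFRB was at 0 in all 3 groups. The part of these cells in the rbpms2b difference was not tested. The paralog rbpms2a read 0, 0.764 and 2.72 CPM in sst1.1+ins+, 0 and 1.88 CPM in ins+, and 2.49, 1.38 and 6.05 CPM in sst1.1+, and RBPMS had 8 counts in all.

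Among the Ptbp genes, which encode repressors of exons used in mature neurons, ptbp1b stood apart. PTBP1 is also known in rodent beta cells as a protein that binds and stabilizes the mRNAs of insulin and of secretory granule proteins. For ptbp1b (ENSDARG00000031907) the libraries read 247, 255 and 247 CPM in sst1.1+ins+, 162 and 158 CPM in ins+, and 321, 316 and 278 CPM in sst1.1+. The 3 groups did not overlap, with ins+ lowest. The ptbp1b log2 fold change in ins+ against sst1.1+ was -0.93 ± 0.15 (SE), 1.91-fold lower, with an edgeR adjusted p of 0.00423. The call was lost only without ins+ replicate 2, at an adjusted p of 0.0518. Between sst1.1+ins+ and ins+ the value of 0.64 ± 0.15 (SE) had an edgeR adjusted p of 0.0785, and in sst1.1+ins+ against sst1.1+ the value of -0.29 ± 0.13 (SE) had one of 0.624.

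The other Ptbp genes did not pass edgeR's test. The related ptbp3 averaged 120 ± 11.6 CPM in sst1.1+ins+, 107 ± 21.6 CPM in ins+ and 102 ± 7.22 CPM in sst1.1+. The count of ptbp1b relative to ptbp3 was 1.88, 2.36 and 2.04 in sst1.1+ins+, 1.76 and 1.29 in the ins+ pair, and 3.33, 3.19 and 2.53 in sst1.1+, again without overlap. That ratio mostly restates the ptbp1b difference and is no separate result. The neuronal paralog ptbp2a was low, at 5.88, 4.71 and 3.67 CPM in sst1.1+ins+, 2.29 and 1.06 CPM in ins+, and 5.88, 10.2 and 8.12 CPM in sst1.1+, with an edgeR adjusted p of 0.131 in ins+ against sst1.1+. DESeq2 called ptbp2a lower there, at a log2 fold change of -2.26 and an adjusted p of 0.0184. In sst1.1+ins+ against ins+ DESeq2 called ptbp1b higher, with an adjusted p of 0.000496. The sum over the 5 Ptbp genes was 432 to 493 CPM in sst1.1+ins+, 306 to 364 CPM in ins+ and 472 to 498 CPM in sst1.1+.

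SR genes encode proteins with RNA recognition motifs and a domain rich in arginine and serine, which bind exonic enhancers. Of 19 SR rows 17 were tested. Among these 2 rose (11.8%, beside 1.61% of all genes) and 0 fell in ins+ against sst1.1+. At an unadjusted p under 0.05 there were 7 higher and 0 lower, or 41.2% beside 17.6% of all genes in either direction. DESeq2 called 5 higher and 0 lower, and limma-voom 3 higher and 0 lower. The shares of all genes that these tools called in this comparison, in either direction, are given in the closing section. The estimates were positive for 16 of the 17 genes, and the median log2 fold change was 0.60 where all genes tested had -0.07. The exception was srsf7a at -0.31. The summed SR level was 674 to 774 CPM in sst1.1+ins+, 970 to 1037 CPM in ins+ and 609 to 706 CPM in sst1.1+.

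For srsf5b (ENSDARG00000027734) the libraries read 42.4, 56.7 and 50.1 CPM in sst1.1+ins+, 124 and 105 CPM in ins+, and 15.3, 30.8 and 50.3 CPM in sst1.1+. Both ins+ libraries were above all others, while the other 2 groups overlapped. The log2 fold change in ins+ against sst1.1+ was 1.83 ± 0.38 (SE), or 3.56-fold, with an edgeR adjusted p of 0.0183. That call was lost without ins+ replicate 1 (adjusted p 0.0657), without sst1.1+ replicate 2 (0.0735) and when only the 2 groups were fitted (0.0765). Its paralog srsf5a (ENSDARG00000029818) read 102, 132 and 106 CPM in sst1.1+ins+, 152 and 186 CPM in ins+, and 89.5, 72.3 and 113 CPM in sst1.1+. Here too both ins+ libraries were the highest, with a log2 fold change against sst1.1+ of 0.88 ± 0.22 (SE) and an edgeR adjusted p of 0.0439.

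The srsf5a call is close to the threshold and was lost under 9 of the 17 alternatives. It held with 1 library left out only for sst1.1+ replicate 3, with an adjusted p of 0.0190. The adjusted p was 0.0711, 0.05004 (just above the threshold) and 0.0731 without sst1.1+ins+ replicates 1, 2 and 3, 0.0668 and 0.260 without ins+ replicates 1 and 2, and 0.120 and 0.136 without sst1.1+ replicates 1 and 2. The count of srsf5b relative to srsf5a was 0.415, 0.431 and 0.471 in sst1.1+ins+, 0.813 and 0.566 in the ins+ pair, and 0.172, 0.425 and 0.446 in sst1.1+. The ins+ libraries had the highest ratios, which restate the differences of these genes.

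The SR gene called in sst1.1+ins+ against ins+ was srsf6a (ENSDARG00000013729). It read 12.2, 16.7 and 14.6 CPM in sst1.1+ins+, 53.7 and 45.7 CPM in ins+, and 13.6, 15.9 and 30.4 CPM in sst1.1+. The log2 fold change in sst1.1+ins+ against ins+ was -1.77 ± 0.37 (SE), 3.42-fold lower, with an edgeR adjusted p of 0.0488. The call was lost under 7 of 17 alternatives: without the hormone and mitochondrial genes (adjusted p 0.0523), without sst1.1+ins+ replicates 1, 2 and 3 (0.213, 0.118 and 0.155), without ins+ replicates 1 and 2 (0.126 each) and without sst1.1+ replicate 2 (0.0740). Its log2 fold change in ins+ against sst1.1+ of 1.32 ± 0.36 (SE) had an edgeR adjusted p of 0.0721. Across the SR genes in sst1.1+ins+ against ins+, 14 of 17 estimates were negative, and their median was -0.38 where all genes tested had 0.08.

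Other SR genes with separate groups in ins+ against sst1.1+ did not pass. The prototype SR genes srsf1a and srsf2a read 84.5 and 55.6 CPM and 103 and 96.7 CPM in ins+, against at most 41.9 CPM and 72.9 CPM in sst1.1+, with edgeR adjusted p of 0.0769 and 0.115. The name srsf3a stands on 3 rows of the table, and whether these share reads is not known: 1 row read 9.90, 12.4 and 9.44 CPM in sst1.1+ins+, 18.3 and 16.1 CPM in ins+, and 7.12, 9.14 and 6.62 CPM in sst1.1+, while the others held 0 and 17 counts in all. Of the Tra2 genes, whose SR-like products bind exonic enhancers, tra2a read 70.17, 90.6 and 68.5 CPM in sst1.1+ins+, 62.0 and 74.6 CPM in ins+, and 48.5, 51.0 and 54.5 CPM in sst1.1+. The lowest library of each ins-reporter group exceeded the highest sst1.1+ library, but the edgeR adjusted p was 0.443 in sst1.1+ins+ against sst1.1+ and 0.337 in ins+ against sst1.1+.

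**Figure D2:**
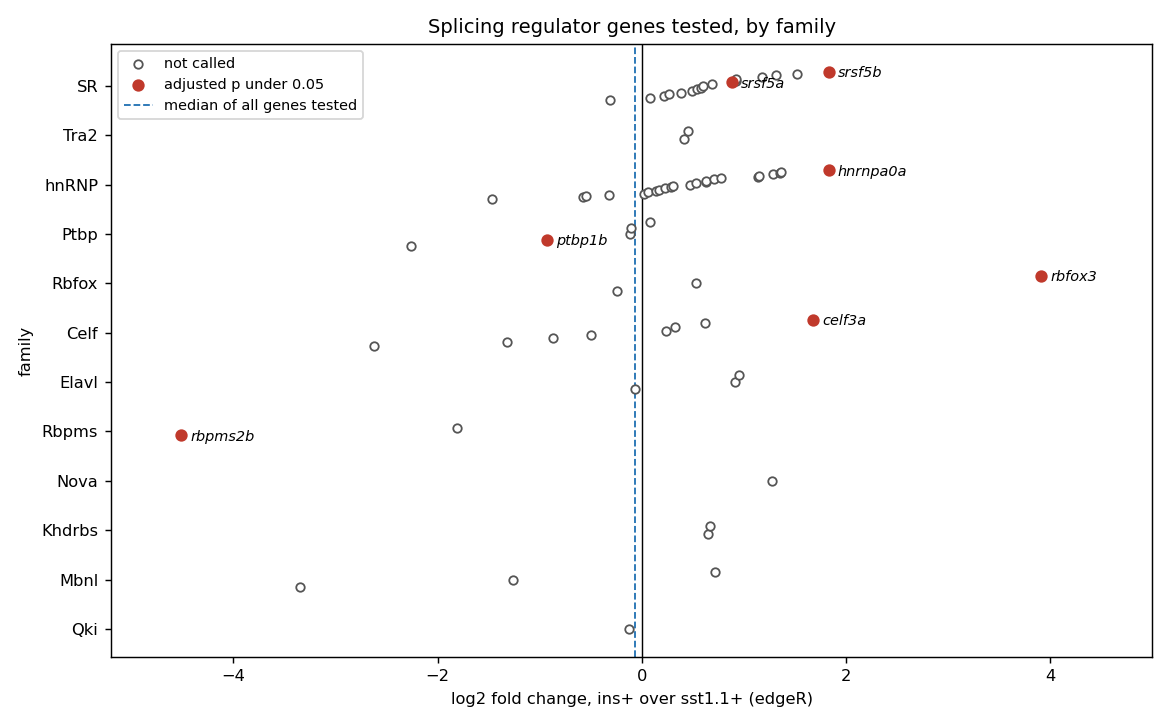
Log2 fold change in ins+ over sst1.1+ (horizontal axis) for the tested genes of each of the 12 families, with the genes called by edgeR at an adjusted p under 0.05 filled and named and the median of all genes tested, -0.07, as a dashed line. The genes qki2 and khdrbs2, at 0 counts in at least 1 of these groups, are left out. SR estimates are positive for 16 of 17 genes and hnRNP estimates for 19 of 23, while 4 of 5 Ptbp estimates are negative.

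All 23 rows of hnRNP genes, which encode abundant nuclear RNA-binding proteins, were tested. Among them 1 rose (4.35%, beside 1.61% of all genes) and 0 fell in ins+ against sst1.1+, where 4.03% of all genes were called in either direction. At an unadjusted p under 0.05 there were 7 higher and 1 lower, or 34.8% beside 17.6% of all genes. DESeq2 called 4 higher and 1 lower, and limma-voom 2 higher and 1 lower, where the closing section gives the shares of all genes called by each. Estimates were positive for 19 of the 23, and their median was 0.48 on the log2 scale. The gene called, hnrnpa0a (ENSDARG00000089302), is a zebrafish copy of HNRNPA0, whose mammalian product binds AU-rich elements of mRNAs. It read 31.1, 56.4 and 38.5 CPM in sst1.1+ins+, 73.0 and 109 CPM in ins+, and 19.7, 34.8 and 22.1 CPM in sst1.1+. Both ins+ libraries were above all others, and relative to sst1.1+ the log2 fold change was 1.83 ± 0.33 (SE), or 3.56-fold, with an edgeR adjusted p of 0.00828. The call was lost only without ins+ replicate 2, at a log2 fold change of 1.52 and an adjusted p of 0.0724.

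The related hnrnpa0b and the more abundant of the 2 rows named hnrnpa0l had negative estimates in ins+ against sst1.1+, while the other hnrnpa0l row read 1.94 to 6.78 CPM over all libraries. The names table at hand gives that other row (ENSDARG00000076380) the symbol gzf1, so its place among the hnRNP genes is uncertain. The more abundant row of hnrnpa0l (ENSDARG00000036161) read 220, 256 and 230 CPM in sst1.1+ins+, 207 and 206 CPM in ins+, and 304, 303 and 297 CPM in sst1.1+. Its groups did not overlap, and the log2 fold change in ins+ against sst1.1+ of -0.55 ± 0.14 (SE) had an edgeR adjusted p of 0.0619. For hnrnpa0b the libraries read 49.3, 69.1 and 40.7 CPM in sst1.1+ins+, 30.2 and 45.7 CPM in ins+, and 48.2, 68.3 and 52.8 CPM in sst1.1+, with an edgeR adjusted p of 0.346. The count of hnrnpa0a relative to that of hnrnpa0l was 0.141, 0.221 and 0.168 in sst1.1+ins+, 0.354 and 0.528 in the ins+ pair, and 0.0648, 0.115 and 0.0745 in sst1.1+. These ratios did not overlap between any of the groups. They combine the rise of hnrnpa0a with the negative estimate of hnrnpa0l, so they restate those differences. Reads shared between such copies could have been split by the counting, so the values of single copies are uncertain.

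Of the other hnRNP genes hnrnpm and hnrnpa3 had positive estimates in ins+ against sst1.1+ of 1.35 and 1.36, with edgeR adjusted p of 0.0924 and 0.115. For hnrnpm the libraries read 20.1, 38.4 and 40.0 CPM in sst1.1+ins+, 67.3 and 81.1 CPM in ins+, and 18.8, 21.6 and 46.8 CPM in sst1.1+. Both ins+ libraries were the highest, and the third sst1.1+ library lay nearest to them. Among the most abundant rows, hnrnpabb had overlapping groups, at 156, 143 and 134 CPM in sst1.1+ins+, 156 and 139 CPM in ins+, and 143, 149 and 132 CPM in sst1.1+. For hnrnpk the order was another: 127.2, 158 and 140 CPM in sst1.1+ins+ lay above 104 and 117 CPM in ins+ and above 126.9, 93.8 and 74.4 CPM in sst1.1+, with edgeR adjusted p of 0.562 against ins+ and 0.561 against sst1.1+.

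Celf genes encode regulators that bind GU-rich sequence, and some, such as CELF3 and CELF5, are mostly neural in mammals. Relative to sst1.1+ cells celf3a rose in ins+ cells, where celf5a had its lowest mean. For celf3a (ENSDARG00000034668) the libraries read 17.5, 39.5 and 14.7 CPM in sst1.1+ins+, 39.3 and 77.8 CPM in ins+, and 18.5, 17.8 and 18.5 CPM in sst1.1+. The ins+ group was above sst1.1+ but overlapped with sst1.1+ins+, whose second library lay just above the lower ins+ library. The log2 fold change in ins+ against sst1.1+ was 1.68 ± 0.42 (SE), or 3.20-fold, with an edgeR adjusted p of 0.0494. That call was lost under 7 of 17 alternatives, with adjusted p of 0.0504 under RLE size factors, 0.0667 without sst1.1+ins+ replicate 1, 0.346 without ins+ replicate 2, and 0.132, 0.141 and 0.0980 without sst1.1+ replicates 1, 2 and 3, the other alternative being a block on replicate number.

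For celf5a the libraries read 38.4, 28.0 and 31.7 CPM in sst1.1+ins+, 13.5 and 28.8 CPM in ins+, and 51.4, 43.8 and 63.4 CPM in sst1.1+. The sst1.1+ libraries were the highest, and the edgeR adjusted p in ins+ against sst1.1+ was 0.0571. The count of celf3a relative to celf5a was 0.455, 1.41 and 0.463 in sst1.1+ins+, 2.92 and 2.70 in the ins+ pair, and 0.360, 0.407 and 0.292 in sst1.1+, without overlap. Since the estimates of these genes in ins+ against sst1.1+ were opposite in sign, this ratio restates both differences and is no separate result. Of the other Celf rows celf1 read 15.4 to 39.4 CPM over all libraries and celf3b 3.39 to 12.9 CPM, while celf5b had 0 counts.

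**Figure D3:**
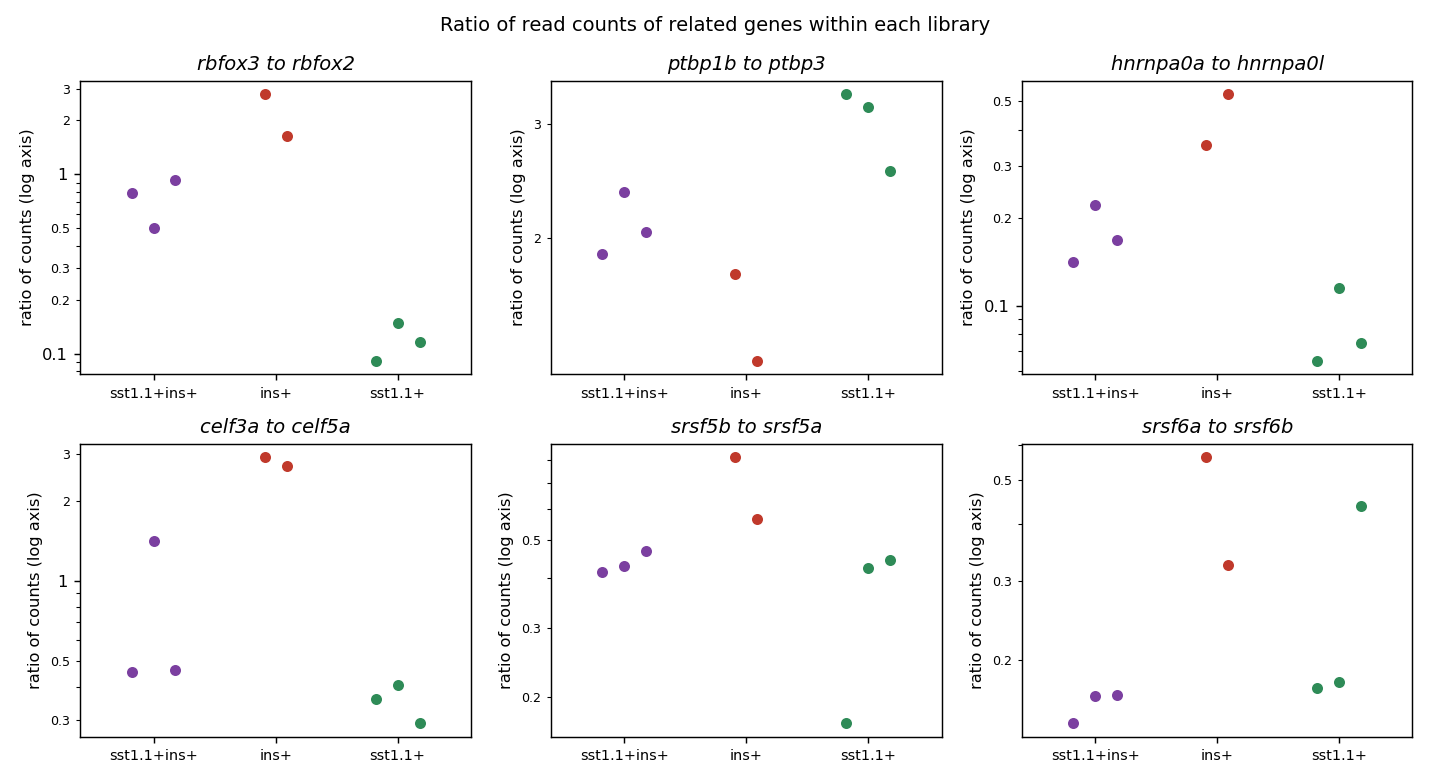
Ratio of the read counts of related genes within each library (vertical axes are log scales), for the 3 sst1.1+ins+, 2 ins+ and 3 sst1.1+ libraries. Each point is 1 library. The rbfox3 to rbfox2 ratio is 1.64 and 2.79 in ins+ and at most 0.149 in sst1.1+, and the srsf6a to srsf6b ratio of 0.439 in 1 sst1.1+ library lies between the 2 ins+ values of 0.563 and 0.324.

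Elavl genes encode Hu proteins, which bind AU-rich elements and act in both splicing and mRNA stability. The ubiquitous elavl1, which encodes HuR, read 26.7, 38.3 and 40.2 CPM in sst1.1+ins+, 66.6 and 63.4 CPM in ins+, and 29.7, 37.5 and 33.3 CPM in sst1.1+. Both ins+ libraries lay above all others, with a log2 fold change in ins+ against sst1.1+ of 0.96 ± 0.25 (SE) and an edgeR adjusted p of 0.0563. The neuronal family member elavl4, whose product HuD binds insulin mRNA in mouse beta cells, read 79.8, 89.2 and 62.3 CPM in sst1.1+ins+, 101 and 98.0 CPM in ins+, and 91.3, 87.5 and 134 CPM in sst1.1+. The ins+ values lay within the range of sst1.1+, with an edgeR adjusted p of 0.929. The zebrafish pan-neuronal gene elavl3 read at most 6.93 CPM in any library.

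Nova genes were read through nova2 alone, since the row named nova1 had 9 counts in all. In mammals NOVA1 is a regulator of splicing in neurons and in beta cells. The names table at hand gives the row of nova2 the symbol NOVA1, so which mammalian Nova gene that row matches is uncertain. The values of nova2 were 8.59, 32.7 and 14.7 CPM in sst1.1+ins+, 38.4 and 37.7 CPM in ins+, and 8.29, 21.0 and 17.8 CPM in sst1.1+. Both ins+ libraries were the highest, the groups with 3 libraries spread widely, and the edgeR adjusted p in ins+ against sst1.1+ was 0.230.

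The STAR family gene khdrbs1a, which encodes Sam68, read 359, 344 and 399 CPM in sst1.1+ins+, 576 and 629 CPM in ins+, and 299, 328 and 513 CPM in sst1.1+. Both ins+ libraries were above all others, and the third sst1.1+ library was nearest. The edgeR adjusted p was 0.113 in ins+ against sst1.1+ and 0.177 in sst1.1+ins+ against ins+. Its copy khdrbs1b read 45.5, 46.6 and 50.7 CPM in sst1.1+ins+, 94.4 and 68.8 CPM in ins+, and 45.6, 49.96 and 60.5 CPM in sst1.1+, the same order of groups, with edgeR adjusted p of 0.142 and 0.163. By contrast khdrbs2, whose mammalian product SLM1 is neural, had 0, 85 and 42 counts in sst1.1+ins+ and 0 in all 5 other libraries. Since 1 of the sst1.1+ins+ libraries also had 0, the groups overlapped, and the gene was not called (edgeR adjusted p 0.559 against sst1.1+).

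Mbnl genes encode muscleblind proteins, which are sequestered by CUG repeats in myotonic dystrophy. Of these mbnl2 read 31.7, 50.2 and 41.2 CPM in sst1.1+ins+, 68.2 and 85.7 CPM in ins+, and 34.2, 48.3 and 57.6 CPM in sst1.1+, with edgeR adjusted p of 0.196 in ins+ against sst1.1+ and 0.193 in sst1.1+ins+ against ins+. The rarer mbnl3 had 21, 40 and 118 counts in sst1.1+ins+, 2 and 4 in the ins+ pair, and 74, 58 and 9 in sst1.1+, with an edgeR adjusted p of 0.326 in ins+ against sst1.1+. Among the Qki genes, best known in myelinating glia and muscle, qkia averaged 11.6 ± 6.46 CPM in sst1.1+ins+, 7.79 ± 6.16 CPM in ins+ and 8.47 ± 0.958 CPM in sst1.1+. For qki2 there were 3, 22 and 4 counts in sst1.1+ins+, 0 and 0 in the ins+ pair, and 0, 0 and 48 in sst1.1+, and for qkib 2 counts in all.

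As a set, most of the genes had higher estimates in ins+ cells. Their summed level was 3282 to 3655 CPM in sst1.1+ins+, 4074 to 4364 CPM in ins+ and 3157 to 3677 CPM in sst1.1+. With ins+ set against sst1.1+, 50 of the 72 tested genes (69.4%) had a positive estimate, beside 47.0% of all genes, and the median log2 fold change was 0.40 beside -0.07. This was not particular to these genes. Of 60 other RNA-binding protein genes, described below, 42 estimates were positive and 18 negative, with a median of 0.28. Of 13 kinase and phosphatase genes that act on SR proteins, 10 were positive and 3 negative. Positive estimates numbered 19 of 33 in the U1, U2 and Sm list and 13 of 34 in the tri-snRNP, NTC and catalytic spliceosome list. The CPM of the ins+ and sst1.1+ libraries did not overlap for 38 of the 72 genes (52.8%), beside 33.3% of all genes tested. Of these 29 were higher in ins+ (40.3%, beside 15.7%) and 9 lower (12.5%, beside 17.7%). The sst1.1+ins+ and sst1.1+ libraries did not overlap for 14 genes (19.4%, beside 14.7%), of which 9 were higher (12.5%, beside 7.39%) and 5 lower (6.94%, beside 7.27%). The sst1.1+ins+ and ins+ libraries did not overlap for 38 (52.8%, beside 30.3%), of which 11 were higher (15.3%, beside 16.4%) and 27 lower (37.5%, beside 14.0%).

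Much of the background consists of genes with low counts, so the same shares were taken among genes with a mean of at least 10 CPM, a division made after the values were seen. Of the 72 genes 51 reached that level, and each of the 72 that edgeR called above was among these 51. Of these, 40 (78.4%) had positive estimates in ins+ against sst1.1+, beside 52.0% of 6394 such genes, and the median log2 fold change was 0.49 beside 0.03. Of the 51 genes 26 were higher without overlap (51.0%, beside 22.6%) and 5 lower (9.80%, beside 21.8%). The share called was 13.7%, beside 8.91%. The median was -0.38 beside -0.02 in sst1.1+ins+ against ins+, and for sst1.1+ins+ against sst1.1+ it was 0.10 beside -0.01.

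**Figure D4:**
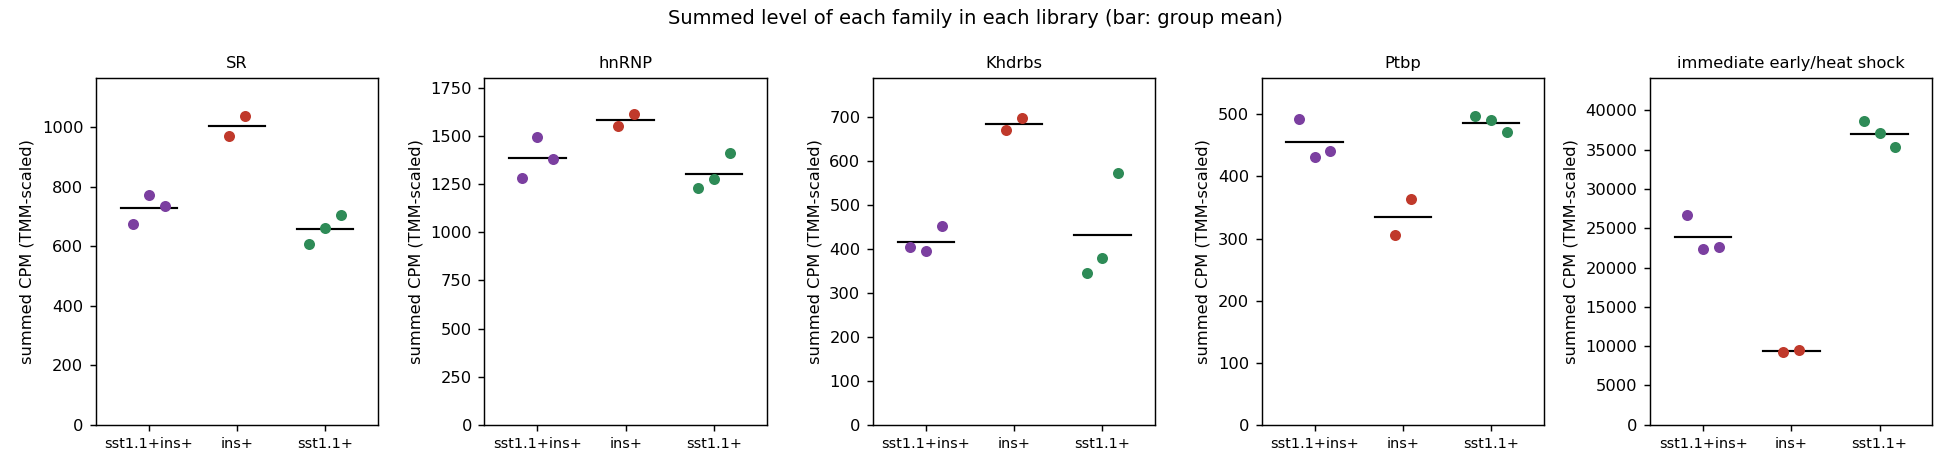
Summed level (CPM on TMM-scaled totals, axes from 0) of the SR, hnRNP, Khdrbs and Ptbp genes and of 27 immediate early and heat shock genes in each library, with the mean of each group as a bar. SR sums are 970 to 1037 CPM in ins+ and at most 774 CPM elsewhere, and the stress sum is 9305 to 9543 CPM in ins+ and at least 22310 CPM elsewhere.

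Within the sst1.1+ group replicate 3 had the highest CPM of its group for 37 of the 72 genes (51.4%), beside 33.6% of all genes tested. Within sst1.1+ins+ replicate 2 was the highest for 39 of 72 (54.2%), beside 34.1% of all genes. These are single libraries, and what sets them apart was not tested. The mean of sst1.1+ins+ lay between the means of ins+ and sst1.1+ for 7 of the 7 genes called in ins+ against sst1.1+, beside 623 of the 662 genes called in all (94.1%), so this position is shared by most genes called.

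Other RNA-processing genes were read from 4 lists. Of their 140 genes tested, 2 rose and 1 fell in ins+ against sst1.1+ by edgeR, or 2.14% beside 4.03% of all genes, and 20 (14.3%, beside 17.6%) had an unadjusted p under 0.05. None of the 3 belongs to the core splicing machinery. None of the 33 genes of the U1 and U2 snRNPs and Sm ring was called. At an unadjusted p under 0.05 there were 3 higher and 1 lower (12.1%, beside 17.6%), with 1 called higher by DESeq2 and 0 by limma-voom. The median log2 fold change of the 33 was 0.09. None of the 34 genes of the tri-snRNP, NTC and catalytic spliceosome was called by edgeR, DESeq2 or limma-voom, and their median was -0.13. At an unadjusted p under 0.05 there were 1 higher and 2 lower (8.82%, beside 17.6%). For sst1.1+ins+ against sst1.1+ and against ins+, edgeR called 0 of the 140 genes, with 6 (4.29%, beside 7.89% of all genes) and 15 (10.7%, beside 12.1%) at an unadjusted p under 0.05. DESeq2 called 1 higher against sst1.1+, and 2 higher and 4 lower against ins+, while limma-voom called 0 against sst1.1+ and 1 lower against ins+. The share of all genes that DESeq2 called against ins+ is given in the closing section, and that of limma-voom is not given. Against sst1.1+ the closing section gives only the range of shares over all alternatives. The genes with the smallest p in the snRNP and spliceosome lists were u2surp, a U2 snRNP-associated factor, at a log2 fold change of 0.90 ± 0.27 (SE) in ins+ against sst1.1+ with an edgeR adjusted p of 0.102, and the helicase gene dhx38, at -1.24 ± 0.37 (SE) in sst1.1+ins+ against ins+ with one of 0.185.

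Of the 13 kinase and phosphatase genes that act on SR proteins, edgeR called 1 in ins+ against sst1.1+, which fell. That is 7.69%, beside 4.03% of all genes called. DESeq2 and limma-voom also called that gene lower, and each called dyrk1ab, a DYRK family kinase gene, higher, at log2 fold changes of 1.30 and 1.35 and adjusted p of 0.0194 and 0.0418. The gene called by edgeR was clk4a, a CLK family kinase gene, at 212, 218 and 160 CPM in sst1.1+ins+, 112 and 151 CPM in ins+, and 236, 237 and 207 CPM in sst1.1+. In ins+ against sst1.1+ its log2 fold change was -0.79 ± 0.20 (SE) with an edgeR adjusted p of 0.0472. It was lost without sst1.1+ins+ replicates 1 and 2 (adjusted p 0.0797 and 0.0580), without ins+ replicates 1 and 2 (0.263 and 0.0634) and without sst1.1+ replicates 1 and 2 (0.119 and 0.133), and also with library totals and with a fit of the 2 groups alone. The median over the 13 was 0.62, opposite in sign to clk4a.

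Of 60 other RNA-binding protein genes 2 rose and 0 fell in ins+ against sst1.1+, or 3.33%. Of all genes 1.61% rose and 4.03% were called in either direction. At an unadjusted p under 0.05 there were 10 of the 60 (16.7%, beside 17.6% of all genes). The cold-inducible RNA-binding protein gene cirbpa read 212, 279 and 264 CPM in sst1.1+ins+, 432 and 395 CPM in ins+, and 236, 249 and 274 CPM in sst1.1+, with a log2 fold change of 0.71 ± 0.16 (SE) and an edgeR adjusted p of 0.0312. The double-stranded RNA-binding protein gene ilf3b read 86.4, 89.0 and 97.7 CPM in sst1.1+ins+, 97.6 and 96.8 CPM in ins+, and 51.2, 44.3 and 60.1 CPM in sst1.1+, with a log2 fold change of 0.91 ± 0.19 (SE) and an edgeR adjusted p of 0.0223. The sst1.1+ins+ libraries sat near sst1.1+ for cirbpa and near ins+ for ilf3b. Without ins+ replicates 1 and 2 and sst1.1+ replicates 1 and 2 in turn, the adjusted p was 0.150, 0.102, 0.102 and 0.101 for cirbpa, and 0.0847, 0.111, 0.0680 and 0.0772 for ilf3b. The cirbpa call was also lost without sst1.1+ins+ replicate 3, at 0.0559, and both were lost in a fit of the 2 groups alone.

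Other cells that a sort of this kind can carry along were read through their markers. Endothelial and erythrocyte markers summed to at most 0.847 and 0.397 CPM in any library. The sum of 6 immune markers was 12.8 to 41.5 CPM in sst1.1+ins+, 18.6 to 19.0 CPM in ins+ and 65.1 to 149 CPM in sst1.1+, with lcp1 at 0 in sst1.1+ins+, ins+ and sst1.1+. Acinar markers, 10 in all, summed to 25.7 to 83.1 CPM in sst1.1+ins+, 15.7 to 59.8 CPM in ins+ and 28.5 to 130 CPM in sst1.1+, and 7 of the 8 tested had negative estimates in ins+ against sst1.1+. Hepatocyte markers summed to 8.20 to 40.9 CPM in sst1.1+ins+, 2.24 to 37.6 CPM in ins+ and 12.3 to 50.9 CPM in sst1.1+, with fabp10a at 0 throughout. Ductal and epithelial markers summed to 295 to 471 CPM in sst1.1+ins+, 188 to 231 CPM in ins+ and 400 to 621 CPM in sst1.1+, and alpha cell markers to 24450 to 34100, 11350 to 18650 and 33680 to 65960 CPM in the same order of groups. The means of the ductal, alpha, immune, acinar, hepatocyte, mesenchymal and stress sums were thus lowest in ins+, where the SR, hnRNP and Khdrbs sums were highest, and the part of these in the differences was not tested.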

How the data were processed

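The values are counts of reads per gene, deposited by the authors without normalization for 8 libraries in 1 table of 32046 rows: 31953 genes, 92 ERCC spike-in controls and 1 EGFP row. Per the submitters' processing notes, Trim Galore, HISAT2, featureCounts and the GRCz11 build were used. Tool versions and roles, the annotation, strandedness and the handling of multiply aligned reads were not given in the sources used here. Therefore reads of overlapping, antisense or near-identical genes cannot be told apart. The ERCC and EGFP rows, 0.0145 to 0.0501% and 0.0200 to 0.810% of each library, stayed out of totals and tests.

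Counts were fitted in R 4.3.3 with edgeR 4.0.16: default expression filter (16418 genes), TMM, all 8 libraries in 1 fit with a mean for each group (residual degrees of freedom 5), quasi-likelihood F-test, and Benjamini-Hochberg adjustment over all genes tested at 0.05. The SE of a log2 fold change is its size over the square root of F. The code was tested on simulated data. Alternatives (17) changed the scaling, the filter, the tool (DESeq2 1.42.0, limma-voom in limma 3.58.1), the libraries fitted, or added a replicate block.

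The genes and lists were chosen with earlier results of these data known. Genes named by rule were those called, and in each family the most abundant gene and the one with the smallest p; from each list of other RNA-processing genes, those called and the one with the smallest p. Other genes were named after their values were seen. Libraries of a group were compared with each other and none looked like a copy of another: their chi-square per degree of freedom was at least 58.1. Identifiers of 80 of the 82 genes, and 26121 of all rows, were in the names table at hand. The symbols there were not always those of the count table, as for a row named hnrnpa0l and the row named nova2. No genome or sequence table was used, so coordinates and sequences are not given.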

Additional observations from a re-analysis of the deposited data

How the results depend on the processing

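In ins+ against sst1.1+ the count of 7 became 18 with DESeq2, 11 with limma-voom and 16 without a filter on low counts, all 7 among them each time, where 10.2%, 3.75% and 5.62% of all genes were called (4.03% by edgeR with the filter), and ranged from 4 to 11 with 1 library left out. For sst1.1+ins+ against sst1.1+ it was 1, rbfox3, under all 17 alternatives, where 0.118% to 1.66% of all genes were called. For sst1.1+ins+ against ins+ the count of 2 became 10 with DESeq2, 8 without a filter and 1 without the hormone and mitochondrial genes, where 4.82%, 2.47% and 0.941% of all genes were called (0.920% otherwise), and ranged from 1 to 4 with 1 library left out. With limma-voom 0 genes were higher and 3 lower in sst1.1+ins+ against ins+, so rbpms2b was not among them. The share of all genes beside that limma-voom count is not given. The shares of all genes called with 1 library left out or with a replicate block are given only for sst1.1+ins+ against sst1.1+. The causes were not tested. Scaling alternatives moved the median of all genes by under 0.1 on the log2 scale.

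The labels number the replicates of each group, but libraries of the same number did not deviate together (correlations of -0.041 to 0.032). In groups of 2 and 3 the deviations constrain each other, so these values cannot show whether the numbers pair the libraries. With a replicate block the counts were 9 (5 of the 7 among them), 1 and 4 in the 3 comparisons, in the order above, and celf3a had an adjusted p of 0.0745 and srsf5a of 0.0545 in ins+ against sst1.1+. The counts of 9 and 4 have no share of all genes beside them. Of the 42 estimates of single genes that were recomputed, 2 changed sign, neither called under any alternative: celf3a in sst1.1+ins+ against sst1.1+ without sst1.1+ins+ replicate 2 (-0.19; with 1 library left out the range was -0.19 to 0.64) and qkia in sst1.1+ins+ against ins+ without ins+ replicate 1 (-0.070; range -0.070 to 1.75). With 2 ins+ libraries, fits that leave 1 out assume that the lone library varies like the other groups. Groups of 2 and 3 were too small for a search for outlying libraries.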
